A study of Homo sapiens with 10 samples.

Results

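The IL6 locus was taken as the window chr7:22700000-22830000 of hg19, which holds the IL6 gene at chr7:22766766-22771621 on the plus strand, with 66.8 kb upstream of the gene start and 58.4 kb downstream of the gene end. Every deposited ChIP-seq peak with its summit in this window was kept, whatever its strength. This gave 80 of the 880198 peaks in the 10 peak lists of the series. The lists come from MCF10A-ER-Src cells, a human breast epithelial line engineered to carry the v-Src oncoprotein joined to the tamoxifen-responsive part of the estrogen receptor. All 10 groups carry this fusion, so the non-transformed cells are not free of it. They were given ethanol, for 36 h according to the library names inside the lists, and the transformed cells were given 1 µM 4-hydroxy-tamoxifen for 12 h. STAT3, NFKB1 (a subunit of NF-κB), and 3 members of the AP-1 family, FOS, JUN, and JUNB, were each immunoprecipitated from 1 sample of non-transformed and 1 sample of transformed cells of this single line. No value below therefore has a replicate check, and no test between the states was possible. The STAT3 antibody carries a catalogue number that is listed elsewhere for STAT3 phosphorylated at a tyrosine, and the labels do not say which form it bound. The libraries held 4837474 to 22082403 reads after duplicate removal, the NFKB1 library of non-transformed cells being the smallest.

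IL6 encodes interleukin 6, a secreted inflammatory cytokine. It signals through the receptor subunits IL6R and IL6ST and the JAK kinases to phosphorylate STAT3, and in breast epithelial cells it is known as part of an inflammatory loop linked to transformation. NF-κB is a classical activator of the IL6 promoter, which also holds elements for C/EBP and AP-1 proteins. FOS binds DNA as a dimer with a JUN family protein, whereas NFKB1 gives rise to a DNA-binding subunit of NF-κB. A ChIP-seq peak shows where an antibody enriched DNA, and it does not show whether the protein itself touches that DNA or what the gene does.

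The sequence just upstream of IL6 is shown first because it covers the distances from the start at which STAT3 and NFKB1 had their main promoter summits. It is the plus strand of chr7:22726950-22727146 in GRCh38.p14, 197 bases taken from the RefSeq promoter table, and it ends at the base before the gene start that corresponds in span to the one used here, which is 53 bp upstream of the RefSeq start. The lists use hg19, positions were not converted between builds, and the sequence under the peaks themselves was not read. The IL6 gene spans 4856 bp from this start to its end in both builds, so that distances measured from the start or the end within each build can be set side by side. Capitals mark matches to 2 of 6 motifs searched on both strands over the whole 300-base promoter entry.
IL6 promoter: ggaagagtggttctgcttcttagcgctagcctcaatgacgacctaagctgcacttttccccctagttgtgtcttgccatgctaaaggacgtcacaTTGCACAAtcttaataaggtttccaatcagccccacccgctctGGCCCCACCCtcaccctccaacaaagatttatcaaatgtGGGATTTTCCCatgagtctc
The C/EBP pattern TTGCNNAA matched once, 102 to 95 bp before the start, and 10.5% of 35116 RefSeq promoters of the same length held it. The NF-κB pattern, GGG and CC with any 5 bases between them, matched at 3 positions, of which a pair overlap on opposite strands 20 to 10 bp before the start and the remaining match lies 59 to 50 bp before it. This loose pattern was present in 58.7% of all promoters. The AP-1 pattern TGANTCA (7.71% of promoters), the CRE pattern TGACGTCA (1.85%), the STAT pattern TTCNNNGAA (7.66%), and the TEAD pattern GGAATG (14%) had no match in these 300 bases. This says nothing of the factors themselves. The sequence reaches 197 bases before the start. The FOS and JUNB promoter summits and the stronger JUN summits lie farther upstream, so the search did not cover them. In the same RefSeq assembly IL6-AS1, an antisense RNA gene, overlaps the start of IL6, and the nearest protein-coding neighbours are STEAP1B upstream and TOMM7 downstream. The peaks carry no strand and cannot be assigned to IL6 rather than to these genes.

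More peaks were listed around IL6 in transformed than in non-transformed cells for each of the 5 proteins. This order turned for JUNB within 50 kb of the start (6 and 5 peaks) and for NFKB1 among peaks with a pileup of 2 or more per 1000000 reads (1 and 0 peaks). FOS had 10 peaks in non-transformed and 13 in transformed cells. JUN had 8 and 14, and JUNB had 7 and 10. NFKB1, the NF-κB subunit, had 1 peak and 7, whereas STAT3 had 2 peaks and 8. The lists as a whole also grew, so the window has to be read against them. FOS peaks were 1.30 times as many in the window and 1.37 times over the whole list, and JUN peaks 1.75 and 1.56 times. The factors were 1.43 and 1.34 for JUNB, against 7 and 5.57 for NFKB1. The widest gap was that of STAT3, with 4 times in the window and 1.87 times over the list, but it rests on only 2 and 8 peaks. Among peaks above the median −log10 q of all lists, STAT3 had only 2 and 3 peaks in the window. The comparison used the 20915 genomic bins of the same 130 kb length that held a peak in any list, leaving out bins without peaks. Of these, 17.4% held at least 10 FOS peaks in non-transformed cells and 18.2% at least 13 in transformed cells. In transformed cells, the share of bins with as many peaks as the IL6 window was 7.96% (JUN), 11.6% (JUNB), 16.5% (NFKB1), and 14.9% (STAT3). Thus the window was on the peak-rich side of these bins for all 5 proteins in this state, without being rare for any.

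**Figure D1:**
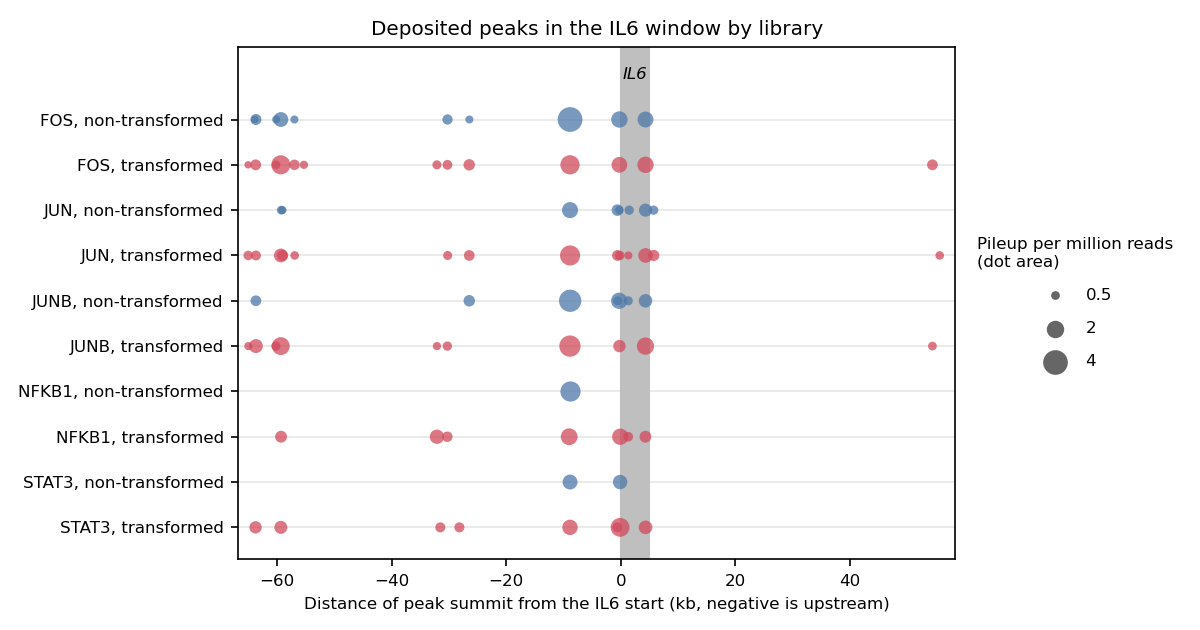
Deposited peaks in the IL6 window, with the distance of each summit from the IL6 start in kb on the horizontal axis, a row for each of the 10 libraries, and dot area proportional to the pileup per 1000000 filtered reads (blue, non-transformed; red, transformed). The grey band is the IL6 gene, and NFKB1 in non-transformed cells has its only peak 8.9 kb upstream of the start.

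The 80 peaks were joined into 18 sites, where a site is a run of summits whose windows of 150 bp on each side overlap. Of these sites, 13 lie upstream of IL6, 2 in the gene, and 3 downstream of it. Peaks were present in both states at 11 sites (61.1%, against 50.5% of 248897 sites over the genome) and in transformed cells only at 7 sites (38.9% against 34.6%). No site had peaks in non-transformed cells only, compared with 15.0% of all sites, although splitting sites more finely with windows of 50 bp on each side gave 2 such sites. All 5 proteins had a peak in transformed cells at 4 of the 18 sites, 22.2% against 17.4% of all sites with a peak in that state. In non-transformed cells all 5 proteins had a peak at 1 site (3.68% of all sites with a peak in that state), which was also the only site with a peak in all 10 lists (2.23% of all sites). At 8 sites 3 or more proteins had a peak in at least 1 state (38.4% of all sites), and these are described in turn.

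The site with most lists was 8.8 kb upstream of IL6, at chr7:22757771-22757939 in hg19, and it had peaks of all 5 proteins in both states. Peaks were called without input control, so the enrichment was not compared with input DNA. The pileup, the count of reads that cover the summit after extension to the fragment length, was 75 for FOS in non-transformed cells and 54 in transformed cells. Per 1000000 filtered reads, hereafter the scaled pileup, FOS had 4.03 and 2.45, a ratio of transformed to non-transformed of 0.607 with a 95% interval of 0.420 to 0.873. This and all following intervals cover the counting of reads only, and not the variation between cultures. The FOS ratio was thus lower than counting error alone allows for equal levels, and 14.2% of all FOS sites present in both states had a ratio as low. An interval below 1 was found at 12.6% of all FOS sites. JUN had 27 reads in the non-transformed and 49 in the transformed sample, with a ratio of 1.56 (0.956 to 2.59), against a median JUN ratio of 1.29 over the genome. JUNB had 30 and 47 reads, which at the different depths gave scaled pileups of 3.27 and 2.98 and a ratio of 0.913 (0.565 to 1.49). The ratios of these 3 AP-1 proteins thus lay on both sides of 1, and the difference between FOS and JUN was not tested. NFKB1 had 13 reads in the small non-transformed library and 18 in transformed cells, with scaled pileups of 2.69 and 1.86 and a ratio of 0.692 (0.321 to 1.54). STAT3 had 16 and 14 reads, and its ratio of 1.07 (0.482 to 2.33) was below the median of 1.71 over all STAT3 sites. For JUN, JUNB, NFKB1, and STAT3 the interval included 1, so a difference between the states was not detectable at this depth.

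In its own list the upstream site was among the stronger JUN sites, with only 2.84% of JUN peaks in transformed cells and 6.51% in non-transformed cells having a pileup as high. FOS stood at 4.87% in non-transformed and 9.25% in transformed cells, and JUNB at 8.90% and 8.31%. It was an intermediate site for NFKB1 (24.2% and 16.0%) and for STAT3 (24.6% and 39.6%).

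The summits of FOS, JUN, JUNB, and STAT3 at the upstream site lay between 8861 and 8827 bp before the IL6 start in the 8 libraries of these proteins. NFKB1, by contrast, had its summit 8937 bp before the start in non-transformed and 8995 bp before it in transformed cells. It was 96 bp upstream of the FOS summit in non-transformed cells, where the median distance over shared sites was 37 bp and 18.6% of sites were as far apart. In transformed cells it was 144 bp upstream of FOS, against a median of 27 bp, and 7.26% of shared sites were as far apart. The NFKB1 summits rest on 13 and 18 reads, and the error of a summit position was not measured.

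**Figure D2:**
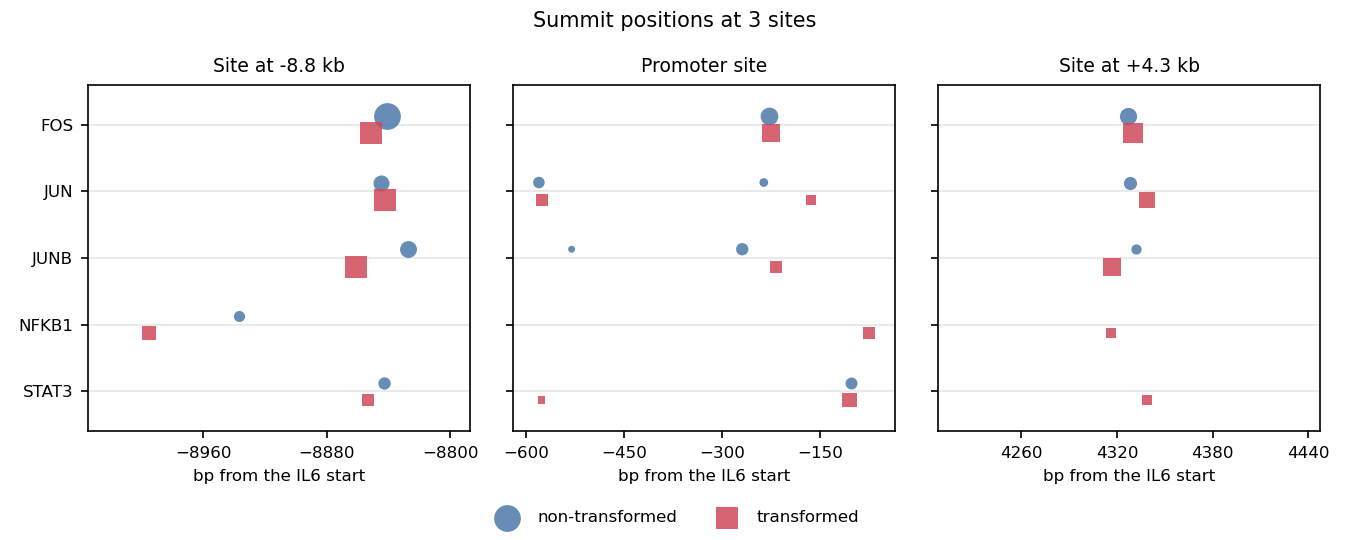
Summit positions in bp from the IL6 start (horizontal axis) for the 5 proteins (rows) at the site 8.8 kb upstream, at the promoter, and 4.3 kb downstream of the start, with symbol area proportional to the pileup (blue circles, non-transformed; red squares, transformed). At the upstream site the NFKB1 summits lie left of the others, at the promoter the proteins are spread over 505 bp, and at the third site all summits fall within 23 bp.

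At the IL6 promoter, chr7:22766186-22766691 in hg19, FOS, JUN, JUNB, and STAT3 had peaks in both states and NFKB1 was listed in transformed cells only. NFKB1 had 17 reads, a scaled pileup of 1.76, with the summit 75 bp before the start. In transformed cells 17.8% of NFKB1 peaks were as high. At an equal scaled pileup the non-transformed NFKB1 library would have had 8.5 reads there, and the weakest peak listed in that library had 4. A peak of equal strength would accordingly have been above the lowest listed pileup. The site was not listed, and how many reads it had in that library is not known from a peak list. Of the 7 NFKB1 sites in transformed cells at this locus 6 had no NFKB1 peak in non-transformed cells, and over the genome this was so for 83.5% of NFKB1 sites.

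STAT3 had 15 reads at the promoter in non-transformed and 21 in transformed cells, with summits 102 and 105 bp before the start, at nearly the same position. Its scaled pileup was 1.37 and 2.34, a ratio of 1.71 (0.838 to 3.56) that sits at the median STAT3 ratio of 1.71 over the genome. FOS had 33 and 36 reads, with summits 228 and 225 bp before the start and a ratio of 0.920 (0.557 to 1.52). JUNB had 16 reads in each state, which when scaled was 1.74 and 1.02, and its ratio of 0.583 (0.273 to 1.24) was at least 1.5-fold lower but with an interval that included 1. The ratio of fold enrichments was 0.793 for JUNB, so the 1.5-fold difference was not kept on that scale. The stronger of 2 JUN peaks had 14 reads in each state and a ratio of 0.859 (0.380 to 1.94). The weaker JUN peak, nearer to the start, went the other way, with scaled pileups of 0.505 and 0.596. For none of the 4 proteins did the promoter level, taken at the highest peak, differ between the states beyond counting error.

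JUN had 2 summits at the promoter in each state, and the one with more reads (14 in each state) lay apart from the FOS summit. The stronger JUN peak was 580 bp before the start in non-transformed and 575 bp in transformed cells, which is 352 and 350 bp from the FOS summit. Of the sites shared by FOS and JUN, 0.844% and 0.543% had summits so far apart. Summits more than 300 bp apart share a site only where other summits link them. These shares are therefore kept low by the joining rule and cannot show whether the distance is unusual. JUN also had a weaker peak nearer to FOS, with 8 reads at 236 bp before the start in non-transformed cells and 11 reads at 164 bp in transformed cells. The FOS summits were at 228 and 225 bp, so JUN was not absent from the FOS position. Whether the 2 JUN peaks differ in strength was not tested. A JUNB peak of 5 reads in non-transformed cells at 530 bp and a STAT3 peak of 6 reads in transformed cells at 576 bp accompanied the distal JUN peak. The promoter site therefore holds a proximal group of summits, 269 to 75 bp before the start, and a distal group at 580 to 530 bp. JUN had the most reads in the distal group. Scaled pileups there were 0.883 for JUN and 0.545 for JUNB in non-transformed cells, and 0.759 for JUN and 0.669 for STAT3 in transformed cells. Pileups from different antibodies do not compare occupancy.

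At the site near the end of the gene, unlike the promoter, the summits of all proteins were close together. This site, 4.3 kb downstream of the start at chr7:22771082-22771105 in hg19, is in the gene, 539 to 516 bp before its end. A later paper, which used this series as previously published data, lists ChIP primers for an IL-6 enhancer. They are shown here because, by distance from the gene end, their product covers these summits.
IL-6 enhancer forward primer: tgcaataaccacccctgacc
IL-6 enhancer reverse primer: agctgcgcagaatgagatga
Each primer had 1 exact match in the hg38 chromosomes, and together they delimit a product of 107 bp at chr7:22731420-22731526, 582 to 476 bp before the gene end. In the GENCODE release 44 annotation of hg38 this product lies in the last of the 5 exons of the IL6 transcript marked as canonical, with all 107 bases in the coding part.

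All 5 proteins had a peak at this site in transformed cells, with summits within 23 bp of each other over both states. FOS had 31 reads in the non-transformed and 39 in the transformed sample, a ratio of 1.06 (0.645 to 1.76). JUN had 18 and 26 reads, with a ratio of 1.24 (0.655 to 2.40) that is close to its median over the genome. JUNB had 11 and 31 reads, a ratio of 1.64 (0.803 to 3.62), so that it was at least 1.5-fold higher in transformed cells but not beyond counting error. STAT3 was listed in transformed cells only, with 11 reads, where an equal level would have given 13.4 reads in the non-transformed library. NFKB1 was likewise listed in transformed cells only, with 9 reads, and here an equal level would have given 4.50 reads, near the lowest listed pileup of 4. A peak of equal strength could therefore have been missed in the non-transformed NFKB1 library.

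FOS and JUN both had a higher level in transformed cells, beyond counting error, at the site 59.3 kb upstream of the start, chr7:22707425-22707741 in hg19. FOS had 27 reads in the non-transformed and 53 in the transformed sample, or scaled pileups of 1.45 and 2.40, with a ratio of 1.66 (1.02 to 2.74). JUN had 8 and 23 reads, a ratio of 2.47 (1.07 to 6.39), which 6.24% of all JUN sites reached. The JUN reads are those of the higher of 2 peaks in each state, with summits 73 bp apart between the states. Divided by the median ratio over the genome, 1.29 for JUN and 0.949 for FOS, the ratios were 1.92 and 1.74. The intervals of both ratios were set against 1 and not against these medians. Both intervals lay above 1, and over the window 3 of the 22 ratios that could be formed had an interval that excluded 1, compared with 20.2% of the ratios of all 5 proteins over the genome. An interval above 1 was found at 9.60% of all FOS sites and 14.9% of all JUN sites listed in both states, so that such a value is not unusual for either protein. JUNB was listed in transformed cells only, with 33 reads, a scaled pileup of 2.10. An equal level would have given 19.2 reads in the non-transformed JUNB library, well above its lowest listed pileup of 4. STAT3 with 10 reads and NFKB1 with 9 reads were also listed in transformed cells only, and 12.2 and 4.50 reads would be the equal level in their other library. In transformed cells FOS, JUN, JUNB, and STAT3 had their summits within 5 bp, and NFKB1 was 47 bp from FOS.

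The same distal stretch held a pair of weaker sites. At 63.7 kb upstream FOS was listed in both states with 15 and 17 reads (ratio 0.956, 0.449 to 2.05), and JUNB with 7 and 20 reads (ratio 1.66, 0.676 to 4.66). JUN with 12 reads and STAT3 with 9 reads were present there in transformed cells only. At 65 kb upstream the AP-1 proteins were listed in transformed cells alone, with 8 reads for FOS, 11 for JUN, and 7 for JUNB. These are low values, since 92.8% of FOS peaks and 97.3% of JUNB peaks of transformed cells were as high.

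A further pair of sites lies about midway between the distal stretch and the gene. At 32.1 kb upstream FOS with 12 reads, JUNB with 7 reads, and NFKB1 with 13 reads were listed in transformed cells only, and the 3 summits fell within 2 bp, at chr7:22734678-22734680. The scaled pileup was 1.34 for NFKB1, 0.543 for FOS, and 0.444 for JUNB, although pileups from different antibodies do not compare occupancy. NFKB1 was in the upper part of its list there (29.2% of peaks as high), whereas the JUNB peak was near the bottom of its own. At 30.2 kb upstream FOS had 13 and 14 reads in the 2 states, with a ratio of 0.908 (0.396 to 2.10). JUN with 10, JUNB with 9, and NFKB1 with 7 reads were listed there in transformed cells only, and for NFKB1 the equal level of 3.50 reads was under the lowest listed pileup of the other library.

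The other 10 sites had peaks of fewer than 3 proteins in each state, with at most 19 reads in any list, which is more than some of the sites above had. Of these, 4 were in a single list, which is 22.2% of the 18 sites against 38.7% of all sites over the genome, 2 were in 2 lists, and 4 were in 3 or 4 lists. FOS had the highest of these values, 19 reads in transformed against 8 in non-transformed cells at 26.4 kb upstream (ratio 2, 0.837 to 5.29). STAT3 alone was listed at 31.5 and at 28.2 kb upstream, each with 6 reads in transformed cells. Within the gene, 1.3 kb from the start, JUN had 9 and 8 reads, JUNB 5 reads in non-transformed cells, and NFKB1 6 reads in transformed cells. Downstream of the gene, JUN alone was listed 5.8 kb from the start in both states, with 9 and 15 reads. The far downstream part held only 2 sites, with FOS and JUNB at 54.4 kb and JUN at 55.7 kb, all in transformed cells.

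**Figure D3:**
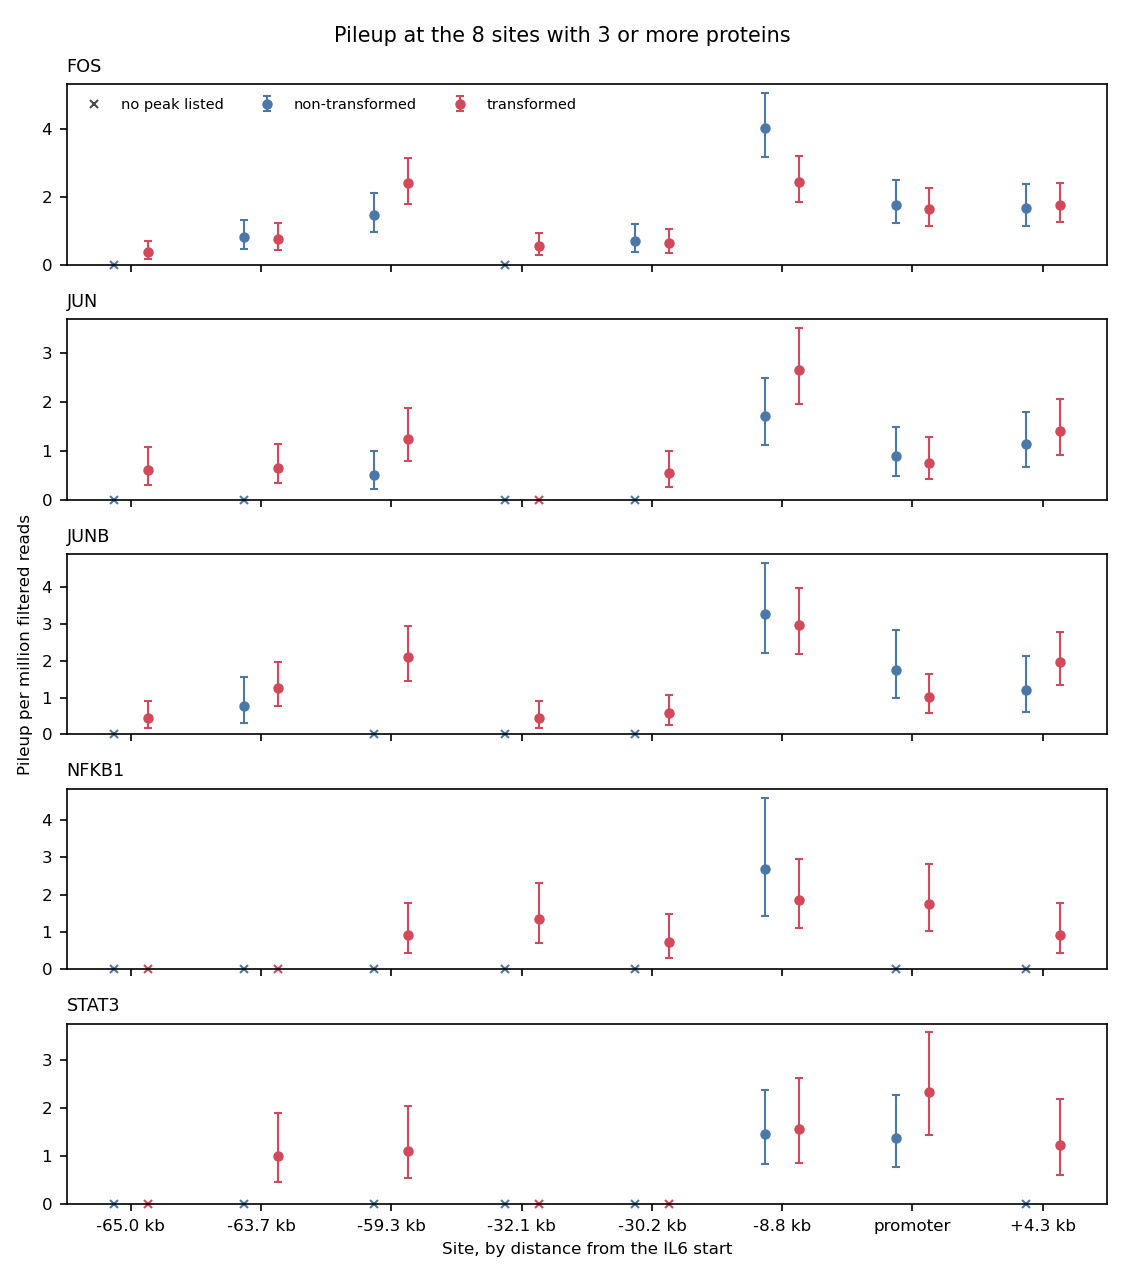
Pileup per 1000000 filtered reads (vertical axis) of the 5 proteins at the 8 sites with 3 or more proteins, by distance from the IL6 start (blue, non-transformed; red, transformed). Bars are 95% Poisson intervals of the read count in a single library, and crosses at the baseline mark sites with no listed peak rather than a measured 0, as for NFKB1 in non-transformed cells everywhere but at 8.8 kb upstream.

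Over all 18 sites the proteins differed in the share of their sites listed in transformed cells only. They also differed in this over the genome (shares in parentheses), with FOS lowest and NFKB1 highest in both. FOS was listed in both states at most of its sites, as 9 of its 13 sites in transformed cells were also in its non-transformed list and 4 were not (38.7% of all FOS sites were not). Among these 9 shared sites 3 were at least 1.5-fold higher in transformed cells (18.5% over the genome) and 1 was at least 1.5-fold lower (20.4%). JUN had 6 of 12 sites in transformed cells only (48.9%), and of its 6 shared sites 2 were higher (36.6%) and 0 lower (4.53%). JUNB had 6 of 10 in transformed cells only (44.3%), with 2 of its 4 shared sites higher (18.6%) and 1 lower (21.0%), and it was the only protein with sites in non-transformed cells only, 2 of 6 (25.1%). STAT3 had 5 of 7 in transformed cells only (61.1%), and of its 2 shared sites 1 was higher (58.8%) and 0 lower (3.89%). Of the single NFKB1 site listed in both states, 0 were higher (23.7%) and 0 lower (18.1%). Sites in non-transformed cells only were 0 of 9 for FOS (16.3%), 0 of 6 for JUN (20.4%), 0 of 1 for NFKB1 (9.97%), and 0 of 2 for STAT3 (28.1%). The counts are small, and the differences from the shares over the genome were not tested.

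Of the 22 ratios at sites listed in both states, 8 were at least 1.5-fold higher and 2 at least 1.5-fold lower in transformed cells, and with ratios of fold enrichments these were 9 and 1. The highest was JUN at 59.3 kb upstream (2.47) and the lowest JUNB at the promoter (0.583), whereas on the fold enrichment scale the lowest was FOS at 8.8 kb upstream (0.633). The intervals were wide, because the highest pileup in the window was 75 reads and the lowest of the sites in this comparison had 7.

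**Figure D4:**
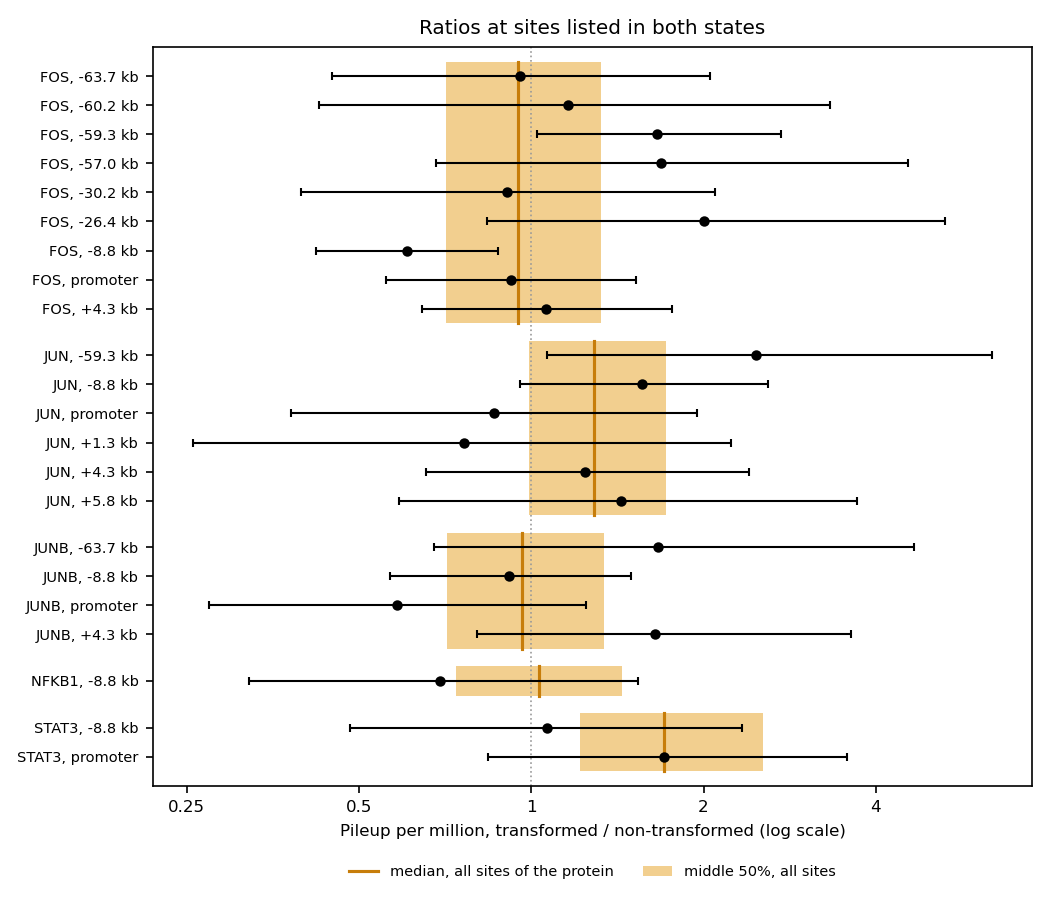
Ratio of scaled pileup in transformed to non-transformed cells (horizontal axis, log scale) for each protein at each IL6 site listed in both states, with 95% intervals from counting, and with the median (orange line) and middle 50% (orange band) of the ratio over all sites of that protein. The interval excludes 1 for FOS and JUN at 59.3 kb upstream, where it lies above 1, and for FOS at 8.8 kb upstream, where it lies below 1.

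The balance among AP-1 proteins was compared at sites with FOS, JUN, and JUNB peaks in 1 state, by taking the share of each in the sum of their scaled pileups. Such shares depend on the antibodies and can be set only against the same shares elsewhere. At 8.8 kb upstream FOS made up 44.8%, JUN 18.9%, and JUNB 36.3% in non-transformed cells, nearly the medians over the genome of 44.1%, 18.6%, and 36.3%. In transformed cells the shares were 30.2%, 32.8%, and 36.9%, while the medians were 38.4%, 26.3%, and 34.2%. FOS thus had the lower and JUN the higher share there in transformed cells, in the same directions as the medians but further. A JUN share as low or lower was found at 51.8% of 39968 sites in non-transformed and 81.8% of 75052 sites in transformed cells. The medians of each state thus come from different sets of sites. At the promoter FOS went the other way, from 40.3% to 47.9%, with JUN from 20.1% to 22.3% and JUNB from 39.6% to 29.8%. The higher JUN peak used there lies about 350 bp from the FOS summit. At 65, 63.7, 59.3, and 30.2 kb upstream FOS, JUN, and JUNB were listed together in transformed cells only, so no change between the states could be formed. At 4.3 kb downstream FOS went from 41.6% to 34.3%, JUN from 28.4% to 27.4%, and JUNB from 30.0% to 38.3%.

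A peak listed in 1 state only can reflect depth as well as occupancy, and the libraries differed in both reads and fragment length. There were 27 pairs of a protein and a site with a peak in transformed cells only. At an equal scaled pileup 25 of these would have had more reads in the other library than its lowest listed pileup, and the remaining 2 were NFKB1 peaks. Some of the 25 exceeded it only barely, so a peak of equal strength could have been missed there. The closest were JUNB at 65 and 32.1 kb upstream and 54.4 kb downstream (4.08, 4.08, and 4.66 reads against 4). NFKB1 at 59.3 kb upstream and 4.3 kb downstream had 4.50 against 4. The lowest listed pileup is the weakest peak of a whole list, not a threshold at these sites. Only JUNB had pairs in the other direction, with 8 reads at 26.4 kb upstream and 5 reads at 1.3 kb downstream of the start. The extension of reads used for the pileup was 150 bp for STAT3 in non-transformed and 119 bp in transformed cells, and between 114 and 135 bp in the other libraries. Dividing also by this length gave ratios for STAT3 of 1.34 at 8.8 kb upstream and 2.15 at the promoter. The part of depth and of the threshold in the 27 pairs was not tested beyond this.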

How the data were processed

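ChIP-seq of 5 proteins in 2 states gave 10 deposited peak lists with 1 sample per group, assigned from the labels. The authors called peaks per library with MACS2 2.0.10.20131216 from 36 bp reads, without input control, with 1 read per position, a local background over 1000000 bp, and a q-value cutoff of 0.05. Labels give hg19 and Bowtie, whose version is not given in the sources used here. Peaks run past the hg38 chromosome ends on 16 of 25 chromosomes, so no hg38 position was used for a peak. This build served for the primers, the IL6 annotation, the promoter sequences and motifs, and the names of neighbouring genes. The deposited pileup is a signal, unscaled for depth. The deposited fold enrichment is a ratio to the local background, and the deposited −log10 p and q values are as MACS2 wrote them.

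Summits on chromosomes 1 to 22 and X (879550 peaks) were joined into sites when windows of 150 bp on each side overlapped by at least 1 bp. The highest pileup of a list in a site was divided by filtered reads and multiplied by 1000000. Ratios have exact Clopper-Pearson 95% intervals, and a 1.5-fold difference was counted as higher or lower. Sites named in full were the one in most lists, the nearest within 2 kb of the start, and those with 3 or more proteins in a state. Promoter sequences came from RefSeq (GRCh38.p14). The members, motifs and lists were chosen with earlier results of these data known. Overlaps and ratios were tested on simulated data with well separated sites, peaks missing at random, and Poisson counts. Linked summits, as at the promoter, and peaks missing below a threshold were not simulated. Python 3.11.15, numpy 2.4.6, pandas 2.3.3, and scipy 1.17.1 were used. Alternatives were a stricter q value, a pileup of at least 2 per 1000000 reads, a window of 50 kb on each side, windows of 50 bp, whole peaks, and 3 other scalings of the ratio, of which scaling by extension was added after seeing the data. Motifs under the peaks, the genes of the IL-6 pathway, and genes with a like pattern need an hg19 reference and were not analysed here.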

Additional observations from a re-analysis of the deposited data

How the results depend on the processing

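Of 85 recomputed values, 53 stayed within the limits set (1.5 times for a count, the counting interval for a ratio) and 32 did not. All 27 recomputed ratios at 8.8 kb upstream and at the promoter stayed within the counting interval, but at 8.8 kb upstream those of JUNB (0.913 to 1.23) and NFKB1 (0.692 to 1.12) crossed 1 with fold enrichments, and that of STAT3 (1.07 to 0.625) did so after division by its median over the genome. Counts of peaks depended on the threshold. With peaks above the median −log10 q of 9.41, FOS kept 6 peaks in non-transformed and 8 in transformed cells, JUN 3 and 7, and JUNB 3 and 5. NFKB1 kept 1 and 3, and STAT3 kept 2 and 3. Sites with peaks in both states were then 6, sites in non-transformed cells only 1, and sites with all 5 proteins in transformed cells 1. When a pileup of 2 or more per 1000000 filtered reads was required, FOS kept 1 and 2 peaks, JUN 0 and 1, JUNB 1 and 2, STAT3 0 and 1, and NFKB1 1 and 0, so that the order of the states turned for NFKB1. There were then 3 sites, 1 in both states and 2 in transformed cells only, and 0 with all 5 proteins in either state or in all 10 lists. Within 50 kb of the start FOS had 5 and 6 peaks, JUN 6 and 8, and JUNB 6 and 5, so that the order turned for JUNB. Sites in non-transformed cells only were 2 with windows of 50 bp and 1 with whole peaks. The libraries had no replicates to leave out. No paired analysis was possible because each group has 1 sample. Depth limits NFKB1 most, since the lowest listed pileup of its non-transformed library corresponds to 0.827 per 1000000 reads, compared with 0.226 for FOS in transformed cells.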
